A study of Rattus norvegicus with 33 samples.

Results

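The 10 genes that BMP and Smad signalling switches on directly in many tissues were followed in the rat dorsal root ganglion (DRG) after implantation of rhBMP-2 next to the spine. They were chosen by name: Id1, Id2, Id3, Id4, Smad6, Smad7, Bambi, Hey1, Nog and Zeb2, which is 10 genes beside the 13337 genes that carry a symbol on the Illumina Rat Ref-12 BeadChip. Of these, 9 had 1 probe each, and all 9 probes passed the filter on detection, Smad6 and Smad7 only through groups at 7 days. Id4 had no probe of that symbol and was not analysed here. Signal was measured on 33 arrays of L4 and L5 DRG from Sasco/Sprague-Dawley rats aged 13 weeks. rhBMP-2/ACS rats received absorbable collagen sponges soaked with recombinant human BMP-2, vehicle/ACS rats received sponges soaked with vehicle, laid on the transverse processes beside these ganglia on 1 side, and no sponge rats had the same incisions with no implant. Each of these 3 treatments had 4 arrays at 1 day post surgery (dps), 3 arrays at 3 dps and 4 arrays at 7 dps. Every group had spinal surgery, and no unoperated rats were part of the arrays. The study's methods describe female rats and sending only the RNA samples of best quality for arrays. Its figure legends give 1 rat per array for rhBMP-2/ACS and vehicle/ACS, and for no sponge at 1 and 3 dps, which was taken to hold for no sponge at 7 dps.

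BMP ligands bind type I and type II receptor kinases, which phosphorylate Smad1, Smad5 and Smad9. These pair with Smad4, enter the nucleus and bind DNA beside their target genes. The Id genes are among the first to respond in most cells and encode proteins that keep basic helix-loop-helix factors from binding DNA. Several other targets close the loop: Smad6 and Smad7 block the receptors from inside the cell, Bambi is a receptor decoy in the membrane, and Nog encodes noggin, which traps BMP ligands outside the cell. Hey1 is a repressor shared with the Notch pathway, and Zeb2 is a Smad-binding repressor.

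Promoters from RefSeq (rat build GRCr8) were read for 8 of the 10 genes. Smad6 and Hey1 were not in the promoter table. The 2 printed belong to the genes whose level differed between rhBMP-2/ACS and vehicle/ACS at 3 dps, Id1 (chr3:161671314-161671563, plus strand) and Bambi (chr17:58821004-58821253, minus strand). Each line gives the 250 bases before the annotated start, 5′ to 3′ on the gene's strand, with capitals for the short Smad-binding letters GTCT or its reverse complement and for the GC-rich element GGCGCC.
Id1: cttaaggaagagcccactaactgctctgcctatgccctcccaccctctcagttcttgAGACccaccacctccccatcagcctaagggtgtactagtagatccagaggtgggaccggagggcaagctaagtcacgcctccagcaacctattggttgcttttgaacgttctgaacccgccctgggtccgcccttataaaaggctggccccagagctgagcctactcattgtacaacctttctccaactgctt
Bambi: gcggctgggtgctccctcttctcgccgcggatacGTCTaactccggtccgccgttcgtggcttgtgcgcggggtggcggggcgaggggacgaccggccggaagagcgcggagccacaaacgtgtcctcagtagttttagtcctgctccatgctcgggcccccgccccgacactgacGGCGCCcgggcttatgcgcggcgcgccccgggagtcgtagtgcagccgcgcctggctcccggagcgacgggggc
In the window of 300 bases that runs on 50 bases past the start, searched on both strands, Id1 held GTCT at -193 and at 25 and had no GGCGCC. Bambi held GTCT at -216 and GGCGCC at -74, counted from the annotated start. Of all 33465 promoters of the table, 88.8% held GTCT, so that a match says little, and 11.0% held GGCGCC. The latter was also found in the windows of Smad7 (at -96 and -36), Nog (at -51) and Id4 (at 39), which makes 4 of the 8. GC content was 77.7%, 73%, 70.3% and 65% in the windows of Smad7, Nog, Bambi and Id4. It was 65.3%, 58%, 55.7% and 49% in those of Id2, Id3, Id1 and Zeb2. GGCGCC holds only G and C, and its share was not compared with promoters of like GC content. The palindrome GTCTAGAC, which holds GTCT on both strands, the element of GGCGCC, 5 bases and GTCT, and the E-box CACCTG were in none of the 8 windows. These 3 motifs were in 0.197%, 0.0538% and 18.8% of all promoters. A match is a description of letters, and a site outside this window would not be seen.

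Levels are log2 intensities after background correction and quantile normalization over the 33 arrays, and they are compared between arrays for one probe, not between probes. A gene was called different when its adjusted p from limma was under 0.05. Id1, Id2, Id3, Bambi, Hey1 and Nog were detected on 33 of 33 arrays at a detection p under 0.05. Zeb2 was detected on 29, Smad6 on 14 and Smad7 on 13. The SD within groups was 0.129 for Id2, between 0.191 and 0.267 for Id1, Id3, Smad6, Smad7, Bambi, Hey1 and Nog, and 0.584 for Zeb2, where the median over all 12029 tested probes was 0.172. Arrays detected 10142 to 11674 probes, and precision is limited by how few arrays a group has. The dimmest probe of an array read 31.5 to 39.8 intensity units at 1 dps. At 3 dps this was 78.7 to 101.4, and at 7 dps 70.7 to 80.8. The arrays of the 3 days also carry labels of different form, so that day and array handling cannot be told apart. Replicate 3 of rhBMP-2/ACS at 3 dps stood farthest from its group, with the lowest mean correlation to its group of all arrays (0.985). Results that rest on it are given with and without it.

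**Figure D1:**
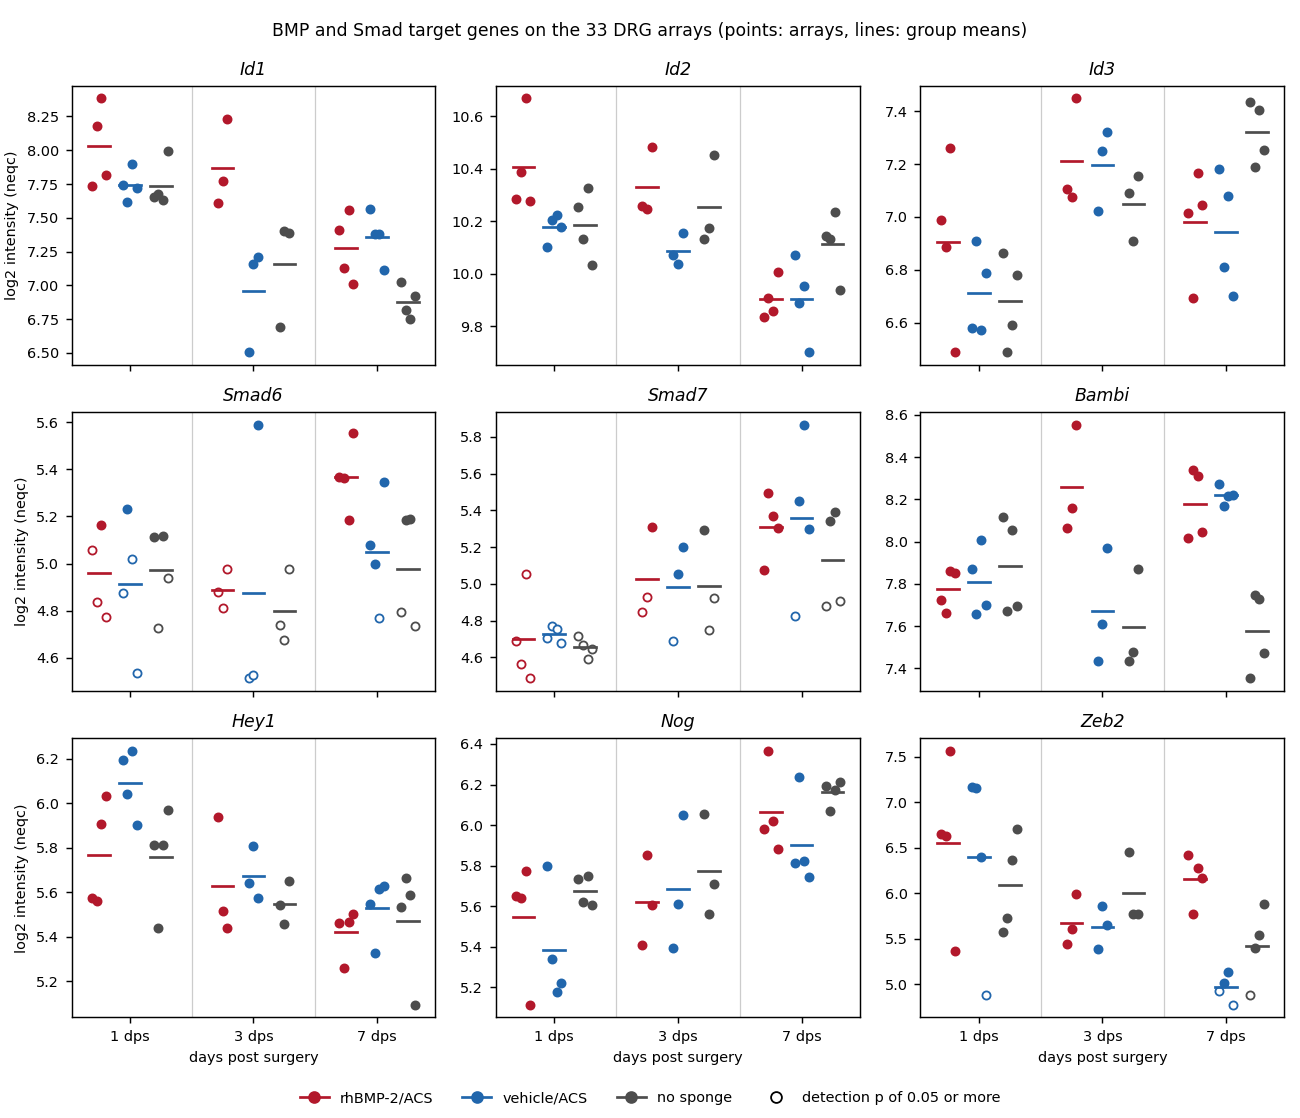
Log2 intensity of the 9 measured genes on each array (points) with group means (lines), by day and treatment, where open points are arrays with a detection p of 0.05 or more. Id1 and Bambi of rhBMP-2/ACS rats lie above the other treatments at 3 dps, Bambi of no sponge rats lies lowest at 7 dps, and Smad7 has only open points at 1 dps.

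At 3 dps, 2 of the 9 genes, Id1 and Bambi, were higher after rhBMP-2/ACS than after vehicle/ACS, and the other 7 were not called. This comparison asks what rhBMP-2 adds to the sponge. The log2 level of Id1, the prototype BMP response gene, was 7.61, 7.78 and 8.23 on the rhBMP-2/ACS arrays and 6.51, 7.16 and 7.21 on the vehicle/ACS arrays. The lowest rhBMP-2/ACS array was thus above the highest vehicle/ACS array. The difference was 0.92 on the log2 scale, or 1.89-fold (95% interval 0.51 to 1.32, adjusted p = 0.00356). Bambi, the receptor decoy, had log2 levels of 8.06, 8.16 and 8.55 with rhBMP-2/ACS and of 7.44, 7.61 and 7.97 with vehicle/ACS. These groups did not overlap either. The log2 difference of Bambi was 0.59 (95% interval 0.28 to 0.89, adjusted p = 0.0125).

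Over all probes, 10.5% were called in this comparison, so that the 2 calls describe Id1 and Bambi and not the 9 genes as a set. Arrays of the groups did not overlap at 3 of the 9 genes and at 22.8% of all probes. The third gene was Id2, which like Id1 restrains basic helix-loop-helix factors, with log2 levels of 10.26, 10.25 and 10.48 against 10.07, 10.04 and 10.16 and a log2 difference of 0.24 (95% interval 0.03 to 0.45, adjusted p = 0.127). The median log2 difference was 0.04 over the 9 genes and -0.03 over all probes.

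Of the 7 genes not called at 3 dps, Id3, Nog and Hey1 were detected on all arrays compared. Id3 had a log2 difference of 0.01 (95% interval -0.32 to 0.34). For Nog, the secreted BMP antagonist, it was -0.06 (95% interval -0.44 to 0.31), and for Hey1 it was -0.04 (95% interval -0.37 to 0.28). The values of these 3 genes overlapped between the groups. Smad6, the inhibitor that acts mainly on the BMP branch, was not well above background on any rhBMP-2/ACS array and on 2 of 3 vehicle/ACS arrays, so that no fold is given. Smad7, which blocks BMP and TGF-beta receptors, was detected on 1 of 3 rhBMP-2/ACS and 2 of 3 vehicle/ACS arrays, so that its measured log2 difference of 0.05 rests in part on values not above background. The interval of Zeb2 was the widest of the 9, from -0.84 to 0.92.

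**Figure D2:**
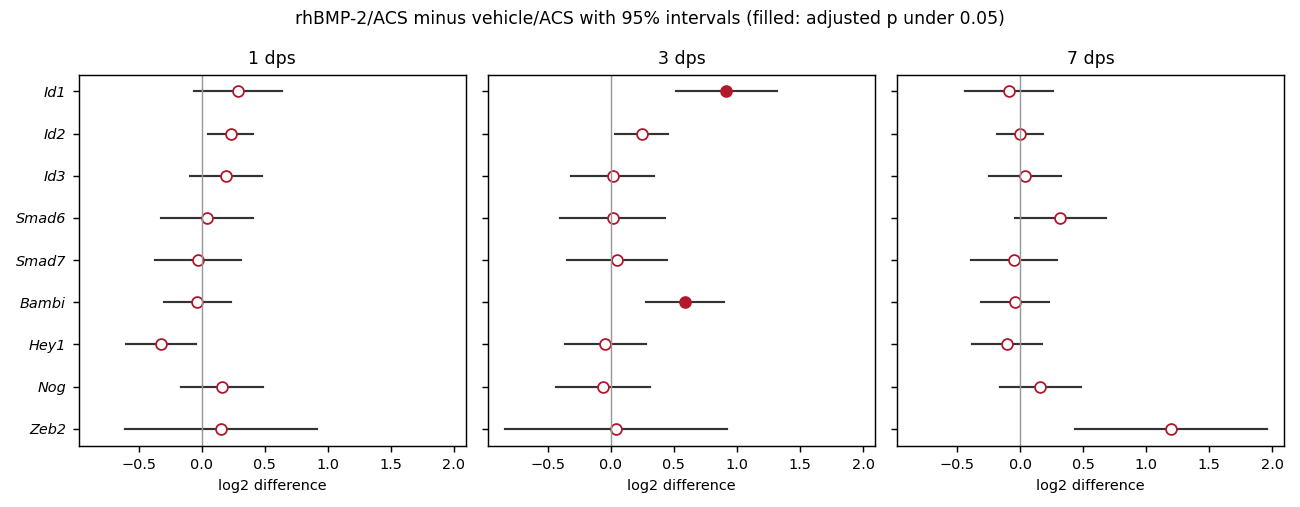
Log2 difference of rhBMP-2/ACS minus vehicle/ACS (points) with 95% intervals from limma (lines) for the 9 genes at 1, 3 and 7 dps, filled where the adjusted p is under 0.05. Filled points are Id1 (0.92) and Bambi (0.59) at 3 dps, while Zeb2 at 7 dps (1.19) is far from 0 with an open point.

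The calls of Id1 and Bambi at 3 dps rest on few arrays. Without replicate 3 of rhBMP-2/ACS the difference of Id1 was 0.74 (adjusted p = 0.0612) and that of Bambi 0.44 (adjusted p = 0.153), so that 0 of the 9 genes and 1.95% of all probes were called. Bambi also did not pass without replicate 1 (0.47, adjusted p = 0.0714) or replicate 2 (0.55, adjusted p = 0.0559) of vehicle/ACS. When only these 6 arrays were fitted, the adjusted p was 0.0755 for Id1 and 0.125 for Bambi.

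Against no sponge at 3 dps, Id1 and Bambi were again the genes called, both higher with rhBMP-2/ACS. The no sponge arrays had log2 levels of 6.69, 7.41 and 7.38 for Id1 and of 7.44, 7.48 and 7.87 for Bambi, all below the rhBMP-2/ACS arrays. The log2 difference was 0.71 for Id1 (1.64-fold, adjusted p = 0.0250) and 0.66 for Bambi (1.58-fold, adjusted p = 0.00759). In this comparison 7.55% of all probes were called and 22.3% did not overlap, and it shares the rhBMP-2/ACS arrays with the one against vehicle/ACS. Without replicate 3 of rhBMP-2/ACS the adjusted p was 0.210 for Id1 and 0.101 for Bambi, and without replicate 1 of no sponge it was 0.175 and 0.0533. Between vehicle/ACS and no sponge at 3 dps, 0 of the 9 genes were called in limma, where 0.341% of all probes were called. An unadjusted limma p under 0.05 was found for 0 of the 9 and for 1647 of the 12029 probes. Arrays did not overlap at 0 of the 9 and at 14.9% of all probes. The log2 difference there was -0.20 for Id1 (95% interval -0.61 to 0.20) and 0.08 for Bambi (95% interval -0.23 to 0.39).

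At 1 dps, none of the 9 genes was called between any treatments, and neither was any other probe (0% called in each of the 3 comparisons). Id1 was at its highest at this time, with 7.74, 8.18, 8.38 and 7.82 on the rhBMP-2/ACS arrays, 7.74, 7.62, 7.90 and 7.72 on the vehicle/ACS arrays, and 7.65, 7.68, 7.63 and 7.99 without a sponge. All 3 groups overlapped, and the log2 difference of rhBMP-2/ACS to vehicle/ACS was 0.29 (95% interval -0.06 to 0.63, adjusted p = 0.999). Before adjustment, 2 of the 9 genes and 456 of all probes had a p under 0.05 in limma in this comparison. These were Id2, with a log2 difference of 0.23, and Hey1, with -0.32 (adjusted p = 0.999 for both). Id2 was the gene whose arrays did not overlap between rhBMP-2/ACS and vehicle/ACS at 1 dps, at 10.28 and above against 10.22 and below, where 2.78% of all probes did not overlap. Between vehicle/ACS and no sponge, and between rhBMP-2/ACS and no sponge, 0 of the 9 did so, beside 2.61% and 4.19% of all probes. Bambi had a log2 difference of -0.03 (95% interval -0.30 to 0.23), so that at 1 dps an increase of the size seen at 3 dps lay outside its interval.

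At 7 dps, the difference between rhBMP-2/ACS and vehicle/ACS was not seen for Id1 or Bambi, and Bambi was higher with either sponge than without one. The log2 level of Id1 was 7.41, 7.13, 7.56 and 7.01 with rhBMP-2/ACS. It was 7.57, 7.38, 7.38 and 7.12 after vehicle/ACS, a difference of -0.09 (95% interval -0.43 to 0.26). Bambi read 8.02, 8.34, 8.31 and 8.05 after rhBMP-2/ACS, 8.27, 8.17, 8.22 and 8.22 after vehicle/ACS, and 7.35, 7.75, 7.73 and 7.47 without a sponge. Every sponge array was above every no sponge array. The log2 difference to no sponge was 0.64 for vehicle/ACS (1.56-fold, 95% interval 0.38 to 0.91, adjusted p = 0.00148) and 0.60 for rhBMP-2/ACS (1.52-fold, 95% interval 0.34 to 0.87, adjusted p = 0.00664), and these comparisons share the no sponge arrays. Both calls held without each array in turn and were lost with Welch's t-test, which takes each probe's spread alone (adjusted p = 0.0988 and 0.149). Of the 9 genes, Bambi was the one called in each, beside 10.2% of all probes for vehicle/ACS and 3.63% for rhBMP-2/ACS.

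Other genes at 7 dps were not called against no sponge, though Id1 and Id3 of vehicle/ACS did not overlap with it. Id1 of vehicle/ACS was 0.48 higher on the log2 scale than without a sponge, where it was 7.02, 6.82, 6.75 and 6.92, and the groups did not overlap (adjusted p = 0.0669). It passed in 4 of 11 alternatives and without replicate 4 of vehicle/ACS (adjusted p = 0.0464). Id3 went the other way, with 7.18, 6.81, 7.08 and 6.70 with vehicle/ACS and 7.44, 7.19, 7.41 and 7.25 without a sponge, a log2 difference of -0.38 with no overlap (adjusted p = 0.0841). Arrays did not overlap at 3 of the 9 genes and 17.1% of all probes for vehicle/ACS against no sponge, and at 2 of the 9 and 12.3% for rhBMP-2/ACS against no sponge.

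Zeb2 had the largest difference of the 9 genes between rhBMP-2/ACS and vehicle/ACS at 7 dps, where 0% of all probes were called. The rhBMP-2/ACS arrays read 6.42, 5.77, 6.28 and 6.17 and the vehicle/ACS arrays 4.93, 5.01, 5.14 and 4.78, so that the groups did not overlap, as at 3.35% of all probes. The measured log2 difference was 1.19 (95% interval 0.43 to 1.96, adjusted p = 0.540). Zeb2 was detected on 2 of 4 vehicle/ACS arrays, so that the lower level is near background and the size of the difference is uncertain. The no sponge arrays lay between, at 4.88, 5.40, 5.54 and 5.89. At 1 dps its levels ran from 4.88 to 7.17 within vehicle/ACS and from 5.36 to 7.57 within rhBMP-2/ACS. Fitting only the rhBMP-2/ACS and vehicle/ACS arrays of this day, so that the spread at 1 dps did not enter, gave an adjusted p of 0.0402. This was the only 1 of 11 alternatives in which Zeb2 passed. Without each array in turn, its adjusted p in limma was 0.405 to 0.955.

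The effect of rhBMP-2 on Id1 differed between 3 and 7 dps. In the test of the change of the rhBMP-2/ACS to vehicle/ACS difference, Id1 fell by 1.00 on the log2 scale from 3 to 7 dps (95% interval -1.53 to -0.47, adjusted p = 0.0193), as 1 of the 9 genes beside 6.9% of all probes. Bambi changed by -0.63 (95% interval -1.03 to -0.22, adjusted p = 0.0536) and did not pass. The call of Id1 was lost without replicate 3 of rhBMP-2/ACS at 3 dps (-0.82, adjusted p = 0.107) and without replicate 1 of vehicle/ACS at 3 dps (-0.78, adjusted p = 0.0756), and when only the compared groups were fitted (adjusted p = 0.0525). From 1 to 3 dps, 0 of the 9 passed in limma, where 1.16% of all probes passed. An unadjusted limma p under 0.05 was found for 2 of the 9 and for 1880 of the 12029 probes. The 2 were Id1, with a change of 0.63 (adjusted p = 0.224), and Bambi, with 0.62 (adjusted p = 0.114). From 1 to 7 dps 0% of all probes passed.

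Averaged over the 3 treatments, most of the genes changed with the day, as did most probes. At 7 against 1 dps, Smad7, Nog, Id3 and Bambi were higher and Id1, Id2, Hey1 and Zeb2 lower. That is 8 of 9 beside 68.4% of all probes, and Smad7 passed the detection filter only through groups at 7 dps. Id1 fell by 0.67 on the log2 scale (adjusted p = 8.07e-07), and at 3 against 1 dps the mean difference was -0.51 (adjusted p = 0.000184). The treatments differed in when: group means at 1, 3 and 7 dps were 8.03, 7.87 and 7.28 for rhBMP-2/ACS, 7.75, 6.96 and 7.36 for vehicle/ACS, and 7.74, 7.16 and 6.88 without a sponge. Nog was 0.51 higher at 7 than at 1 dps (adjusted p = 1.59e-05), with group means of 5.38 to 5.68 at 1 dps and 5.90 to 6.16 at 7 dps. Hey1 fell by 0.40 (adjusted p = 5.52e-05) and Id2 by 0.28 (adjusted p = 1.8e-05), a call that was lost with medians in place of quantiles equalized (-0.07, adjusted p = 0.430). Id3 was 0.31 higher (adjusted p = 0.00108), the opposite of the other Id genes on the array.

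Smad7 was not well above background on any of the 12 arrays at 1 dps and was detected on 4 of 9 arrays at 3 dps and 9 of 12 at 7 dps. By limma on the measured values, Smad7 was higher at 7 than at 1 dps (adjusted p = 6.32e-06). Smad7 and Smad6 passed the detection filter only through the sponge groups at 7 dps. Their calls as higher at 7 dps follow in part from that selection and are no independent support for a rise. No fold is given for Smad7, as its values at 7 dps also include arrays not above background. The floors and the bound for Smad6 below take, for each array of the lower group, the higher of its own value and the lowest value of a detected probe. Smad6 of rhBMP-2/ACS rats was detected on 4 of 4 arrays at 7 dps (5.37, 5.36, 5.19 and 5.55) and on 0 of 3 at 3 dps, which is at least 1.27-fold and was not tested by itself. Of the 9 genes, 5 were called at 3 against 1 dps (53.7% of all probes) and 4 at 7 against 3 dps (58.7%). Called at 3 against 1 dps were Id3 and Smad7 as higher and Id1, Hey1 and Zeb2 as lower. For Smad7 no fold is given there, as its mean at 3 dps was below the floor set for 1 dps (5.12). Called at 7 against 3 dps were Nog, Smad7 and Smad6 as higher and Id2 as lower. Smad6 was detected on 1 of 9 arrays at 3 dps and 9 of 12 at 7 dps, and without a sponge its mean at 7 dps (4.98) was below the floor set for 3 dps (5.11). Averaged over treatments, Bambi was 0.17 higher at 7 than at 1 dps, just past the threshold (adjusted p = 0.0496), and this call was lost without any 1 of 15 of the 24 arrays. So were those of Zeb2 at 3 against 1 dps for 10 of 21 arrays, and of Smad6 and Smad7 at 7 against 3 dps for 9 and 7 of 21. The average of Bambi joined opposite directions, with group means at 1 and 7 dps of 7.78 and 8.18 for rhBMP-2/ACS, 7.81 and 8.22 for vehicle/ACS, and 7.89 and 7.57 without a sponge.

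Ordered by group mean, Id1 ran from 8.03 in rhBMP-2/ACS at 1 dps over 7.87 in rhBMP-2/ACS at 3 dps to 6.96 in vehicle/ACS at 3 dps and 6.88 in no sponge at 7 dps. Neighbours in this order overlapped, except that all arrays of no sponge at 1 dps (mean 7.74) were above those of vehicle/ACS at 7 dps (mean 7.36). Bambi was highest in rhBMP-2/ACS at 3 dps (mean 8.26) and lowest in no sponge at 7 dps (mean 7.57). The highest and lowest group means were 0.50 apart on the log2 scale for Id2 and 1.59 apart for Zeb2, with the other 7 genes between these.

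Other genes of the pathway were followed in lists chosen, like the 10 genes, with earlier results of these data known. Tested were 10 other targets of BMP, TGF-beta and Smad (15 on the array of 20 listed). Of these, 4 were higher and 0 lower in rhBMP-2/ACS than in vehicle/ACS at 3 dps, beside 10.5% of all probes called. Their median log2 difference was 0.56. Pmepa1, which restrains TGF-beta Smads, was 0.60 higher (adjusted p = 0.000213). Junb, an AP-1 factor, was 1.43 higher (adjusted p = 0.00195), Ccn2, a matrix-associated protein that TGF-beta induces, 1.33 higher (adjusted p = 0.0228) and Hes1, a repressor of the Notch pathway, 0.52 higher (adjusted p = 0.0411). Junb is also an immediate early gene and Hes1 a Notch target.

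The counts of genes called upstream of the targets at 3 dps stand beside 10.5% of all probes. Of 7 ligands tested, Tgfb1 was higher (log2 difference 0.79, adjusted p = 0.0485). Of 13 receptors and Smad transducers, among them Bmpr1a, Bmpr2, Acvr1, Smad1 and Smad4, 0 were called in limma. Of 6 antagonists and ubiquitin ligases, Fstl3, a secreted binder of activins and some BMPs, was higher by 1.22 (adjusted p = 0.000263). Of 7 other Hey, Hes and Notch genes Hes1 was higher, and of the E proteins Tcf3 and Tcf4, which Id proteins bind, 0 were called in limma. Without replicate 3 of rhBMP-2/ACS, 2 of 10 other targets and 1 of 6 antagonists were called, and 0 in the remaining lists of the pathway. Of all probes, 1.95% were called there. At 1 dps and 7 dps, 0 genes of these lists were called between rhBMP-2/ACS and vehicle/ACS in limma, as for all probes.

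Markers of several cell types moved with Id1 and Bambi at 3 dps, and the counts called stand beside 10.5% of all probes. Bulk tissue cannot tell more cells of a type from more RNA per cell. Endothelial markers, of cells that respond to BMP with Id1 in many tissues, had a mean log2 level of 7.25 to 7.76 per array with rhBMP-2/ACS and of 6.83 to 7.04 with vehicle/ACS, and 4 of 10 were higher, Vwf, Sox18, Egfl7 and Esam. Fibroblast and matrix markers ran from 9.71 to 10.7 against 8.71 to 9.68, with 9 of 11 higher. Macrophage and monocyte markers ran from 7.29 to 8.03 against 6.14 to 6.99, with 7 of 10 higher. Immediate early genes ran from 8.21 to 8.95 against 7.65 to 7.82, with 9 of 15 higher. Sensory neuron markers, the defining cells of the DRG, had 11.35 to 11.52 against 11.56 to 11.59, with 4 of 12 lower, or 0 of 12 when medians were equalized. Of 9 satellite glia and Schwann cell markers Gfap was higher, and of 6 skeletal muscle and 3 erythrocyte markers 0 were called in limma, with median log2 differences of -0.20 and 0.83. Their part in the levels of Id1 and Bambi was not tested. Without replicate 3 of rhBMP-2/ACS, the counts were 2 endothelial, 3 matrix, 3 macrophage, 3 immediate early and 0 neuron markers, beside 1.95% of all probes.

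**Figure D3:**
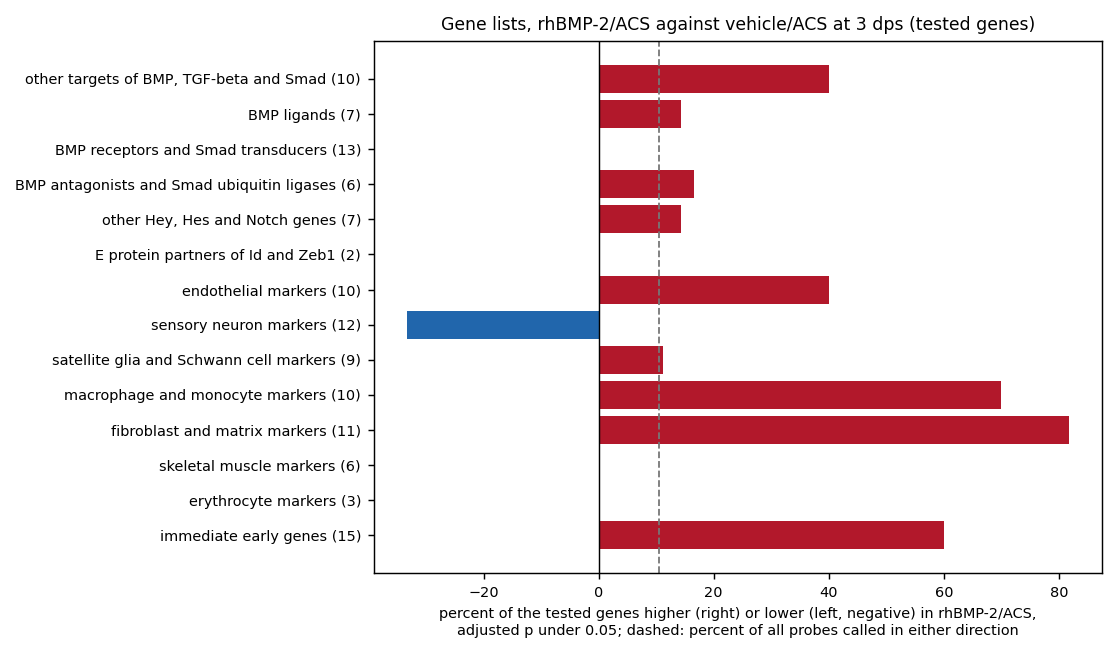
Percent of the tested genes of each list (number in brackets) that were higher (right) or lower (left) in rhBMP-2/ACS than in vehicle/ACS at 3 dps at an adjusted p under 0.05, with the 10.5% of all probes called as a dashed line. Fibroblast and matrix (9 of 11) and macrophage markers (7 of 10) have the longest bars, and receptors and Smad transducers have none.

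At 7 dps, fibroblast and macrophage markers were higher with either sponge than without one, and endothelial markers were not called. Against no sponge, 9 of 11 fibroblast and matrix markers and 8 of 10 macrophage markers were higher with vehicle/ACS, and 5 of 11 and 4 of 10 with rhBMP-2/ACS. Of 10 endothelial markers 0 were called in limma in either comparison, of 15 immediate early genes 4 and 3 were higher, and of 12 neuron markers 2 and 1 were lower. Over all probes, 10.2% and 3.63% were called. Endothelial markers were at 7.12 to 7.38 with rhBMP-2/ACS, 7.25 to 7.33 with vehicle/ACS and 7.09 to 7.15 without a sponge. Their vehicle/ACS and no sponge arrays thus did not overlap, though no single marker was called. Fibroblast and matrix markers were at 9.71 to 10.2 with rhBMP-2/ACS, 9.98 to 10.6 with vehicle/ACS and 8.95 to 9.18 without a sponge, and macrophage markers were at 7.15 to 7.44, 7.53 to 7.78 and 6.45 to 6.64. Bambi was likewise higher with either sponge. Immediate early genes overlapped, at 7.89 to 8.14, 7.96 to 8.14 and 7.57 to 8.00, with Id1 at 7.01 to 7.56, 7.12 to 7.57 and 6.75 to 7.02.

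**Figure D4:**
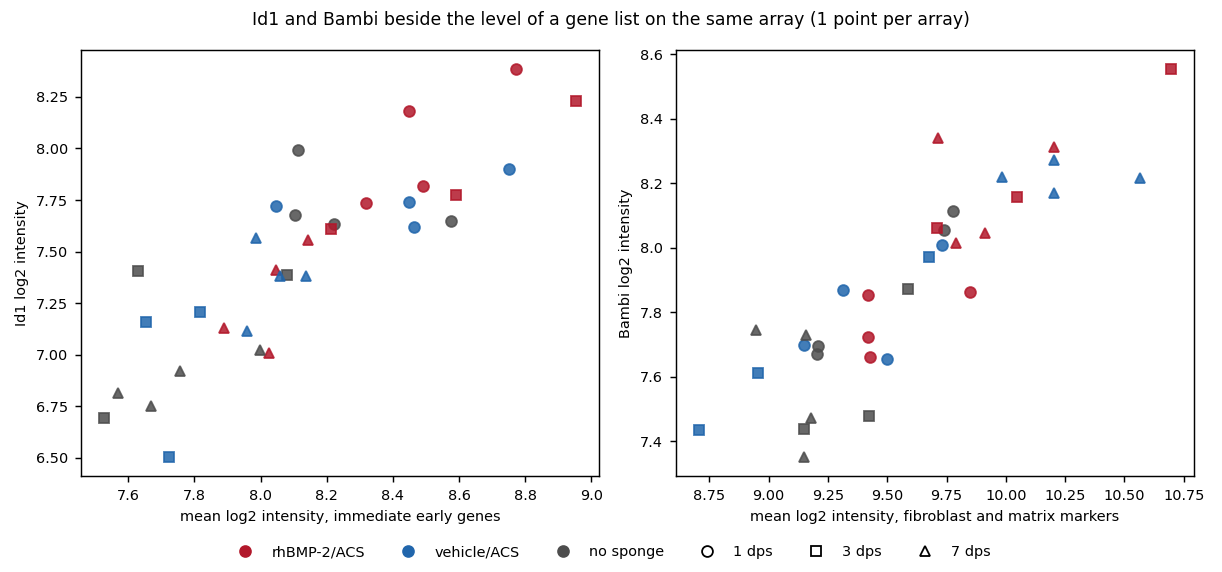
Log2 intensity of Id1 against the mean log2 intensity of 15 immediate early genes, and of Bambi against that of 11 fibroblast and matrix markers, with 1 point per array (colour: treatment, shape: day). Of all lists, these had the highest Pearson's r with Id1 (0.85) and Bambi (0.87) over the 33 arrays, where days and groups enter. With group means subtracted, Id1 had its highest r with endothelial markers (0.75), beside 0.49 with immediate early genes. Bambi had 0.70 with its list. The rhBMP-2/ACS arrays at 3 dps sit to the upper right of the vehicle/ACS arrays of that day in both. The no sponge arrays at 7 dps sit toward the lower left, as do some vehicle/ACS and no sponge arrays at 3 dps.

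The genes with the pattern most like each member differed between members. Pearson's r was taken over the 33 arrays with each of 8690 other tested genes, as a description in which the days and groups enter. For Id1 they were Dusp1, an immediate early phosphatase (r = 0.86), Chi3l1, a secreted glycoprotein of inflamed tissue (r = 0.85), and Slc6a6, the taurine transporter (r = 0.85). For Bambi they were RT1-DMb, of MHC class II loading (r = 0.89), and the collagen genes Col6a1 (r = 0.89) and Col15a1 (r = 0.88). For Nog the closest was Hykk (r = 0.83), for Id3 Jade3 (r = 0.78), for Id2 Wdr83os (r = 0.74), for Hey1 Ctnnd2 (r = 0.69) and for Zeb2 Emc4 (r = 0.65).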

How the data were processed

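DRG RNA of 33 samples was hybridized to Illumina Rat Ref-12 BeadChips. For 22523 probes, the authors deposited non-normalized bead intensity values exported from GenomeStudio, whose version is not given in the sources used here. Each deposited intensity has a detection p-value beside it. A second deposited table holds intensities that the authors background-subtracted and quantile-normalized in GenomeStudio, on a linear scale with values below 0. It served as an alternative, shifted to a minimum of 1 before log2. Samples were grouped by the treatment and time point of the deposited labels.

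Intensities were background corrected and quantile normalized with limma 3.58.1 (R 4.3.3, neqc, offset 16, negative controls inferred from detection p). Tests covered 12029 probes, 8691 of them with a symbol, whose detection p was under 0.05 on 75% or more of the arrays in 1 or more groups. GEO's platform annotation gave 13793 probes a symbol and 8730 none. One fit (lmFit, eBayes with trend) held the 9 groups and gave 15 comparisons, with 95% intervals and Benjamini-Hochberg adjustment within each over all tested probes, at 0.05. The fit was tested on simulated data. List levels are means of log2 values. The 10 genes, the lists and the motifs were chosen with earlier results of these data known. Of the lists, at most 4 called genes each were named, by lowest p, and likeness was taken for genes detected on most arrays. Figures were drawn with Python 3.11.15. The labels do not say that replicates are separate rats, and p-values then measure only the spread between these samples.

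The alternatives were the authors' normalized values, medians in place of quantiles, an offset of 50, no background correction, and no detection filter or a stricter one. Others were array weights, a robust prior, the compared groups alone, the replicate number as a block, and Welch's t-test on the same values. The study's methods name no statistic for their test, so that it was not repeated here. Each array of the compared groups was also left out in turn, with normalization kept. Each gene had 1 probe, so that a choice between probes did not arise.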

Additional observations from a re-analysis of the deposited data

Results flagged for a closer look

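The rhBMP-2/ACS to vehicle/ACS difference of Id1 fell by 1.00 on the log2 scale from 3 to 7 dps, by a limma test of the change itself (adjusted p = 0.0193). In groups of 4, an array far from the other 3 was found in 3 of 54 sets of 4 values, and chance flags about 1 in 20. Id1 of no sponge replicate 4 at 1 dps was 7.99, above the other arrays at 7.63 to 7.68. Hey1 of rhBMP-2/ACS replicate 2 at 7 dps was 5.26, below the others at 5.46 to 5.50. Nog of vehicle/ACS replicate 2 at 7 dps was 6.24, above the others at 5.74 to 5.83.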

How the results depend on the processing

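No called gene changed its direction under any alternative run. At 3 dps, 2 genes were called in rhBMP-2/ACS against vehicle/ACS. It was 0 when only the compared groups were fitted, 0 with Welch's t-test, and 0 to 2 without each array in turn. Of all probes, 1268 were called, then 0 with the t-test and 235 to 1697 without each array. Against no sponge at 3 dps, 2 genes were called. It was 0 with the compared groups alone, 0 with the t-test, 1 with array weights and 0 to 2 without each array. Of all probes, 908 were called, then 0 with the t-test and 139 to 1266 without each array. At 7 dps, Bambi against no sponge gave 1 call for either sponge and 0 with Welch's t-test. For vehicle/ACS it was 2 each with medians equalized, the replicate block and the compared groups alone. It was 3 with array weights and 1 to 2 without each array, and for rhBMP-2/ACS 1 without each array. Of all probes, 1224 were called for vehicle/ACS, then 167 with the t-test and 745 to 1170 without each array. For rhBMP-2/ACS these were 437, 21 and 157 to 412. At 7 dps the compared groups alone gave 1 call, Zeb2, in place of 0 between the sponges. For the change from 3 to 7 dps, 2 were called in place of 1 with no background correction, the stricter filter, the robust prior and the replicate block (each time Bambi joined Id1), and 0 to 2 without each array. With the compared groups alone, Zeb2 passed (adjusted p = 0.0202) in place of Id1 (0.0525). For the change from 1 to 3 dps it was 1 with the replicate block and 0 to 1 without each array. Of all probes, 830 were called for the change from 3 to 7 dps, and 209 to 1186 without each array. For the change from 1 to 3 dps these were 140 and 5 to 387. At 7 against 3 dps, the stricter filter gave 2 in place of 4, as it left Smad6 and Smad7 untested, and leaving out arrays gave 2 to 5. At 3 against 1 dps and 7 against 1 dps it was 4 to 5 and 7 to 8. Of all probes, leaving out arrays gave 6728 to 7004 calls at 7 against 3 dps. It gave 6142 to 6438 at 3 against 1 dps and 8051 to 8204 at 7 against 1 dps. Single calls by day were also lost for Smad7 at 7 against 3 dps with the authors' normalized values (adjusted p = 0.0548) and the compared groups alone (0.0596), for Zeb2 at 3 against 1 dps with the robust prior (0.0576) and the compared groups alone (0.0726), and for Bambi at 7 against 1 dps with no detection filter (0.0592). Where no cause is named, the cause was not tested. The methods' thresholds were a fold over 1.66 and an unadjusted p under 0.1. Here they were applied with Welch's t-test to the values normalized here, not with the study's own test and values. For rhBMP-2/ACS against vehicle/ACS, Id1 passed them at 3 dps, among 283 of all probes. Zeb2 passed at 7 dps, among 16 of all probes. For rhBMP-2/ACS against no sponge at 3 dps, none of the measured genes passed, Id1 and Bambi included, while 270 of all probes did. At 7 dps Zeb2 passed there, among 203 of all probes.

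Equalizing medians moved the split of probes called at 3 dps from 719 higher and 549 lower to 814 and 97. It also moved the median log2 difference of all probes at 7 against 1 dps from 0.03 to 0.10, and Id2 there from -0.28 to -0.07 (adjusted p = 0.430). Same-numbered arrays of a day deviated together with a correlation over 0.1 in 6 of 33 pairs, so that the numbers were not taken to pair rats. With the replicate block, Bambi changed by 0.62 from 1 to 3 dps (adjusted p = 0.0176). Groups of 3 or 4 arrays and signals near background limit Smad6, Smad7 and Zeb2.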
